A study of Mus musculus with 288 samples.

Results

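The transcription factor p53 (gene Trp53) and 9 of its textbook target genes, Mdm2, Cdkn1a, Ccng1, Bax, Perp, Phlda3, Zmat3, Sesn2 and Trp53inp1, were followed in single mouse embryonic stem cells leaving 2i culture. These 10 genes were chosen by name from the 54232 genes of the count table, as the factor and a set of its well-known targets, and all 10 had reads. In these data Trp53 and Bax had higher mean levels 24 and 48 h after release than before it. Perp had reads in a larger share of cells at 24 h, and Trp53inp1 was lower at both later times. The plate of 24 h may hold another line, as described below, so time cannot be told apart from that difference in its values. Across single cells, pairs of these genes varied together more often than pairs of all genes under each label. The most such pairs were seen at 24 h, when correlation was also most common among all genes. The fewest cells were kept at 24 h, so these counts do not compare the time points. Trp53 reached a rho of 0.3 with 3 of its 9 targets at 24 h and with none of the 8 usable ones at 0 or 48 h. The values at 24 h lay just over that limit. At an equal number of reads per cell Cdkn1a fell below it and Zmat3 passed it.

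Every label describes the cells as E14, an embryonic stem cell line, and as strain 129/Ola. They were grown on gelatine in N2B27 medium with LIF and the inhibitors CHIR99021, which blocks GSK3, and PD0325901, which blocks MEK (2i). At the start of release the cells were rinsed and given serum medium with LIF. Cells were taken at 0 h (label D0, still in 2i), 24 h (D1) and 48 h (D2), dissociated with Accutase and sorted 1 to a well into buffer with the GpC methylase M.CviPI, since chromatin accessibility and DNA methylation were to be read from the same cells. Polyadenylated RNA of 96 wells was sequenced under each label. The labels name no replicate culture, so each time point was taken as 1 culture on 1 plate, and time, culture, plate and library cannot be told apart. For that reason no p-value is given, cells are not treated as replicates, and each SD is the spread between cells.

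A well was kept with over 200000 reads, over 2000 genes with a read and a share of mitochondrial (mt-) reads under 0.15, which left 90 D0, 50 D1 and 93 D2 cells, 233 of 288 wells. The kept cells held from 202157 to 43336922 reads, with medians of 1610758.5 in D0, 7956161.5 in D1 and 2162090 in D2. At an equal depth of 200000 reads, reached by thinning, the median cell had 7793.5 detected genes in D0, 8035 in D1 and 3945 in D2. The D1 plate stood apart: Hprt had reads in 48 of its 50 cells against 9 of 90 in D0 and 7 of 93 in D2, and Y-linked genes had reads in 48, 3 and 5 cells. Whether the D1 plate holds the same line as the other plates was not tested, and D1 may be another line. Time and this difference cannot be told apart in the D1 values below, whereas the comparison of D2 with D0 rests on no D1 cell. All 7 pluripotency markers (Pou5f1, Sox2, Nanog, Zfp42, Utf1, Dppa5a and Tdgf1) had reads in 10% or more of the cells under every label, with median summed levels of 4760, 6515 and 9464 CPM (reads per 1000000 reads of the cell) in D0, D1 and D2. The summed markers of trophectoderm had a median of 25.1 CPM in D0, and those of neural cells 13.1 CPM in D1. No other median for primitive endoderm, trophectoderm, fibroblasts, mesoderm, neural or 2-cell-like cells was above 1.09 CPM, and the 6 markers of 2-cell-like cells had no read in D1 or D2.

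p53 is kept scarce by the ubiquitin ligase Mdm2, which p53 itself switches on, so that the pair form a negative feedback loop. When damage or stress stabilizes the protein, it binds response elements made of a pair of half-sites and raises genes that halt the cell cycle, prime mitochondria for apoptosis, repair DNA or adjust metabolism. Embryonic stem cells hold a good deal of p53 and lack a firm checkpoint between G1 and S phase, and p53 activity is governed mainly at the protein, so the level of Trp53 mRNA does not measure it.

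The stretches below are shown because p53 reads its targets through these letters: each is the part of a RefSeq promoter window (GRCm38.p6, 250 bases before to 50 after the start site) that holds a match to the p53 half-site consensus, with the match in capitals. Windows were found for 7 of the 10 genes, Cdkn1a having 2, and none were found for Zmat3, Trp53inp1 and Perp. The consensus reads the same on both strands, and it occurred in 5 of the 8 windows, those of Bax, Ccng1, Mdm2 and Trp53 and 1 of the 2 of Cdkn1a, against 2745 of all 32851 windows (8.36%). Bax lies at chr7:45467045-45467144 (minus strand), Ccng1 at chr11:40755417-40755516 (minus), Mdm2 at chr10:117710890-117710989 (minus) and Cdkn1a at chr17:29090861-29090972 (plus).
Bax: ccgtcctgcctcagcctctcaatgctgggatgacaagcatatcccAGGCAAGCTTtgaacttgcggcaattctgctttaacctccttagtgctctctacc
Ccng1: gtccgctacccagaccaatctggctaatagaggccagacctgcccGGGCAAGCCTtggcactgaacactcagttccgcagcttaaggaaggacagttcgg
Mdm2: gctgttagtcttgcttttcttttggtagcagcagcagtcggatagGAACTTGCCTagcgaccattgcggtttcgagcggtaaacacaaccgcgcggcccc
Cdkn1a: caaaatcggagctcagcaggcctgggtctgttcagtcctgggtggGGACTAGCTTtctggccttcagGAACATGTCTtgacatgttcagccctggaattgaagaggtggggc
The matches began 201 bases before the start site in Bax, 186 in Mdm2, 185 in Ccng1 and 75 in Trp53. Cdkn1a was the only one of the 7 with a pair of matches at most 13 bases apart, an arrangement found in 24 of all windows (0.0731%). They began 73 and 51 bases before its start site. Only exact matches were counted, and the bases directly after the second Cdkn1a match, a near match, stay in lower case. A match is a string of letters and not a measured binding site, and the windows leave out the more distant and intronic sequence.

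Trp53 (chr11:69580359-69591873, plus strand) encodes the factor itself. In D0 its level ranged from 0 to 616 CPM between cells with a median of 234, in D1 from 87.8 to 1313 with a median of 572, and in D2 from 0 to 2011 with a median of 274. D1 cells sat high, since 98% of them were above the D0 median, yet the ranges of the labels overlapped. The mean was 235 ± 106 CPM in D0 (SD, n = 90 cells), 574 ± 221 in D1 (n = 50) and 353 ± 342 in D2 (n = 93). On the log2 scale, with 1 CPM added to each mean here and below, D1 was 1.28 above D0, which is higher than 90.3% of the genes tested. D2 was 0.58 above D0 and 0.70 below D1 (log2 ratio -0.70). Within each side of the plates, the D1 over D0 ratio was 1.00 (columns 1 to 6) and 1.54 (columns 7 to 12). The spread between cells was widest in D2, where 57% of cells were above the D0 median and the coefficient of variation was 0.969 against 0.450 in D0 and 0.385 in D1.

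**Figure D1:**
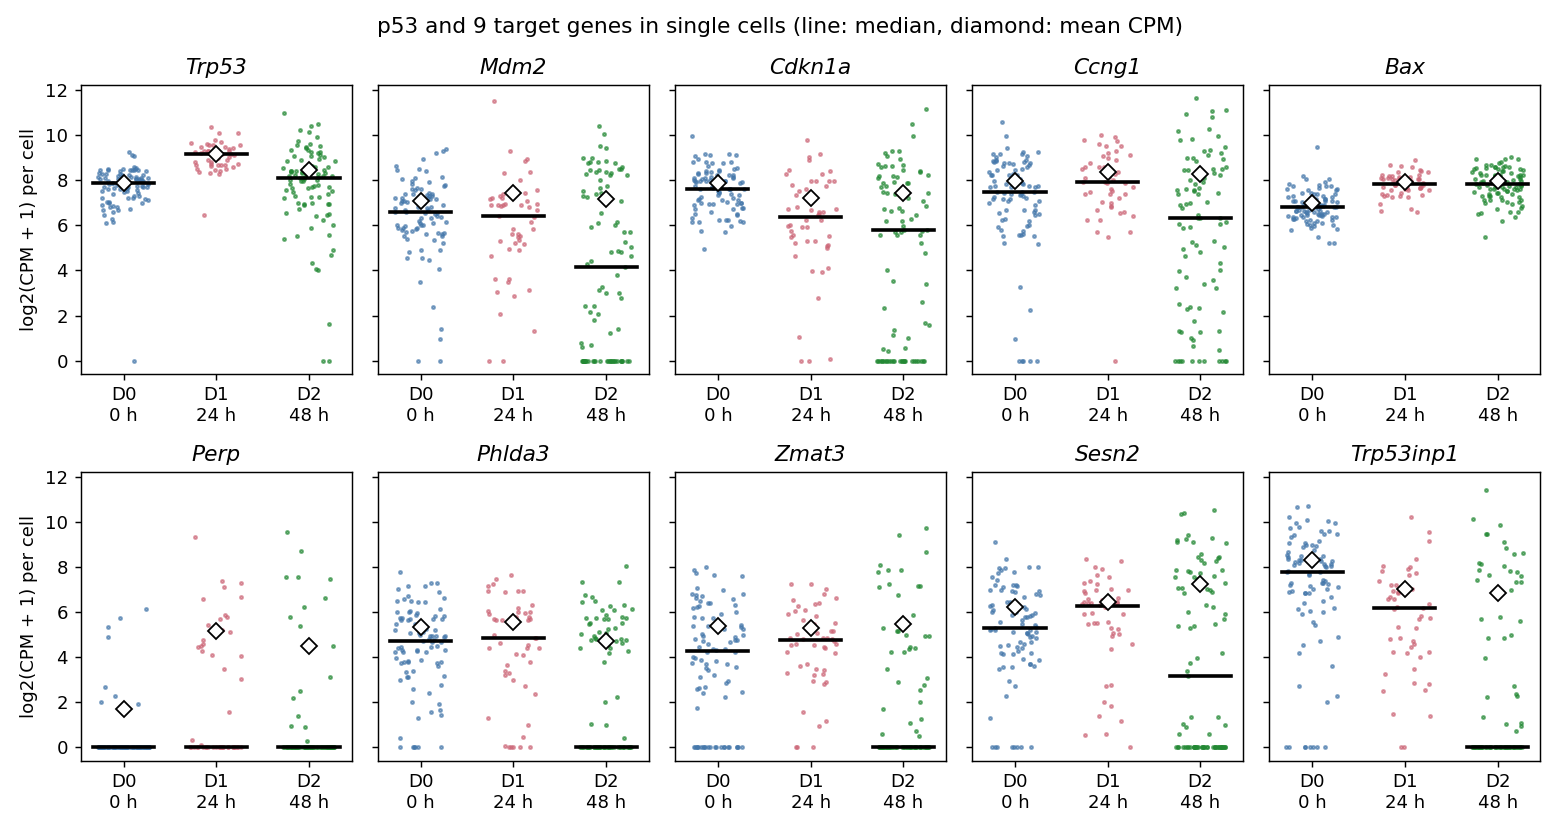
Level of p53 and 9 target genes in each kept cell, as log2(CPM + 1) on the vertical axis, with D0, D1 and D2 (0, 24 and 48 h) on the horizontal axis; a point is a cell, the line the median and the diamond the mean CPM on the same scale. Bax has no cell at 0 at any time, Trp53 is highest in D1, and in D2 the other targets spread from 0 to levels above the top of D0 for Mdm2, Cdkn1a, Ccng1, Perp, Phlda3, Zmat3, Sesn2 and Trp53inp1.

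Mdm2 (chr10:117688875-117710758, minus strand) encodes the ligase that marks p53 for destruction. Its median was 95.1 CPM in D0, 83.2 in D1 and 16.5 in D2, while its highest cell held 666, 2890 and 1356 CPM. The means were 135 ± 133, 170 ± 414 and 141 ± 237 CPM. A single D1 cell, the one at 2890 CPM, gave 34% of the summed D1 level, and leaving it out turned the D1 over D0 log2 ratio from 0.33 to -0.23. The ratio was -0.24 in plate columns 1 to 6 and 0.73 in columns 7 to 12, so the mean gives no steady direction for Mdm2. D2 over D0 was 0.07, and D2 over D1 went from -0.27 to 0.30 without that cell. The share of cells with a read at 200000 reads per cell was 94.4% in D0 (95% exact interval 87.5 to 98.2), 88% in D1 (75.7 to 95.5) and 57% in D2 (46.3 to 67.2), beside medians of 92.2%, 92% and 48.4% over the 5559 genes read in 70% or more of D0 cells. Intervals here and below are Clopper-Pearson and cover counting error only.

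Cdkn1a (chr17:29090976-29100727, plus strand) encodes p21, the inhibitor of cyclin-dependent kinases that carries out much of the arrest by p53. Every D0 cell had reads, from 30.4 to 988 CPM with a median of 197. In D1 the range was 0 to 866 with a median of 81.8, and in D2 it was 0 to 2257 with a median of 54.1. The low cells of D1 and D2 went below every D0 cell, and the highest D2 cell went above every D0 cell. The means of 235 ± 157, 147 ± 174 and 173 ± 316 CPM gave log2 ratios of -0.67 for D1 over D0 and -0.44 for D2 over D0, both under 2-fold. In CPM the means differed by less than the SDs between cells. The D1 over D0 ratio was -1.07 in plate columns 1 to 6 and -0.30 in columns 7 to 12. At equal depth 100% of D0 cells had a read (96.0 to 100), 92% of D1 cells (80.8 to 97.8) and 62.4% of D2 cells (51.7 to 72.2). The annotation places exons of AC167363.2 over 273 bases of Cdkn1a (7.68% of its exonic length) on the opposite strand, and the strand setting of the counting is not given in the sources used here.

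Ccng1 (chr11:40748552-40755311, minus strand) encodes cyclin G1, which recruits a phosphatase to Mdm2 and is a widely used p53 target. Its cells ranged from 0 to 1529 CPM in D0 (median 176), 0 to 1024 in D1 (median 241) and 0 to 3187 in D2 (median 80.1). The means lay close together at 248 ± 238, 330 ± 263 and 305 ± 552 CPM, with log2 ratios over D0 of 0.41 in D1 and 0.29 in D2. The D2 cells held both extremes: 38.7% were above the D0 median, and the top cell had 11.2% of the summed D2 level. The share with a read at equal depth was 92.2% in D0 (84.6 to 96.8), 98% in D1 (89.4 to 99.9) and 77.4% in D2 (67.6 to 85.4).

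Bax (chr7:45461697-45466898, minus strand) encodes the protein that opens the outer mitochondrial membrane in apoptosis. It was the most evenly expressed target, with a read in every kept cell at equal depth. Its cells ranged from 35.7 to 699 CPM in D0 (median 111), 96.1 to 477 in D1 (median 228) and 44.1 to 527 in D2 (median 225). Most cells of both later times were above the D0 median, 94% in D1 and 90.3% in D2, though the ranges overlapped. The means were 127 ± 81.5, 238 ± 82.3 and 246 ± 108 CPM, and the log2 ratios over D0 were 0.90 in D1 and 0.94 in D2, just short of 2-fold. D2 over D1 was 0.04. In plate columns 1 to 6 and 7 to 12 the D1 over D0 ratio was 0.79 and 0.99 and the D2 over D0 ratio 1.07 and 0.79. Of the 755 genes with a D1 mean within 1.5-fold of Bax, 0.662% had a smaller coefficient of variation than its 0.345, and in D2 the figure was 1.69% of 826 genes. In D0 it was 20.9% of 1678 genes. Gm45808 shares 192 bases with Bax on the same strand (12.2% of its exonic length) and had no reads.

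Perp (chr10:18845020-18857073, plus strand) encodes a membrane protein of desmosomes that is also induced by p53 in apoptosis. It was nearly silent in D0, with reads in 8 of 90 cells and none above 69.8 CPM. In D1 24 of 50 cells had reads, up to 640 CPM, and in D2 17 of 93 did, up to 748 CPM. The medians were 0 under all 3 labels. At equal depth the shares were 8.89% (3.92 to 16.8), 42% (28.2 to 56.8) and 14% (7.66 to 22.7), with intervals that cover counting error within each plate and do not compare the time points. The means of 2.28 ± 10.4, 34.6 ± 96.4 and 21.7 ± 93.8 CPM gave log2 ratios over D0 of 3.44 in D1 and 2.79 in D2. The top cell gave 37.0% of the summed level in D1 and in D2, and with any 1 cell left out the ratios stayed between 2.82 and 3.82 in D1 and between 2.17 and 3.17 in D2. With a pseudocount of 10 CPM they were 1.86 and 1.37.

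Trp53inp1 (chr4:11156431-11174379, plus strand) encodes a nuclear protein that takes part in p53-dependent cell death and in autophagy. It was the target lowest against D0 at both later times: D0 cells ranged from 0 to 1658 CPM with a median of 219, D1 cells from 0 to 1200 with a median of 70.5, and D2 cells from 0 to 2690 with a median of 0. Few later cells reached the D0 median, 16% in D1 and 15.1% in D2. The means were 320 ± 348, 130 ± 209 and 115 ± 337 CPM, with log2 ratios over D0 of -1.30 in D1 and -1.47 in D2. The same 2 sides of the plates gave -1.44 and -1.20 for D1 and -1.21 and -1.72 for D2. A read at equal depth was found in 91.1% of D0 cells (83.2 to 96.1), 88% of D1 cells (75.7 to 95.5) and 33.3% of D2 cells (23.9 to 43.9). In D1 the gene was thus detected about as often as in D0, at a lower level per cell.

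Phlda3 (chr1:135766119-135769136, plus strand) encodes a small protein that competes with Akt for membrane lipids. Its ranges were 0 to 217, 0 to 199 and 0 to 261 CPM, with medians of 25.6, 27.9 and 0. The means of 39.5 ± 42.1, 46.2 ± 49.95 and 25.05 ± 42.01 CPM put D1 0.22 above D0 on the log2 scale and D2 below it (log2 ratio -0.63). Zmat3 (chr3:32334792-32366014, minus strand), which encodes an RNA-binding zinc finger protein, had almost equal means of 40.1 ± 55.4, 38.1 ± 38.5 and 42.7 ± 129 CPM. Its medians were 18.5, 26.2 and 0 CPM, and its highest cell held 255, 152 and 856 CPM. The D2 mean was carried by few cells, 1 of which gave 21.5% of the summed level, and D2 over D0 was -0.61 in plate columns 1 to 6 and 0.59 in columns 7 to 12. At equal depth a read was found in 82.2%, 76% and 45.2% of cells for Phlda3 and in 73.3%, 84% and 31.2% for Zmat3, in the order D0, D1, D2.

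Sesn2 (chr4:132492032-132510501, minus strand) encodes Sestrin 2, a leucine sensor that restrains mTORC1 and answers to stress pathways besides p53. Its cells ranged from 0 to 553 CPM in D0 (median 38.7), 0 to 327 in D1 (median 76.4) and 0 to 1487 in D2 (median 7.88). The means were 73.8 ± 88.8, 85.6 ± 77.9 and 149 ± 283 CPM, so the D2 over D0 log2 ratio was 1.00 although only 44.1% of D2 cells were above the D0 median. The higher D2 mean came from 1 side of the plate: it was 232 ± 365 CPM in the 46 cells of columns 7 to 12 and 67.3 ± 124 CPM in the 47 cells of columns 1 to 6. In columns 1 to 6 the D2 over D0 ratio was -0.36 and in columns 7 to 12 it was 1.89. A difference between sides of the D2 plate at least as far from 0 as that of Sesn2 (log2 1.77) was seen in 12% of the 11380 genes tested there. The 2 sides also differed in genes per cell at equal depth, with medians of 3666 and 4325.5, and across D2 cells Sesn2 had a Spearman rho of 0.41 with the number of genes detected. Their part in the Sesn2 level was not tested. The share of cells with a read at equal depth was 86.7% in D0 (77.9 to 92.9), 94% in D1 (83.5 to 98.7) and 52.7% in D2 (42.1 to 63.1).

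Compared per length, as mean CPM per kb of merged exons in the GENCODE annotation, Bax was first under every label, at 80.8, 151 and 156. Trp53 stood at rank 4 in D0 (58.1) and at rank 2 in D1 and D2 (142 and 87.3). Ccng1 was at rank 2 in D0 (70.7) and rank 3 in D1 and D2 (93.9 and 86.8), with Cdkn1a next to it (66.1, 41.5 and 48.6). Mdm2 lay at 26.5, 33.5 and 27.8 CPM per kb, and Sesn2 went from rank 8 (21.2) in D0 to rank 5 (42.9) in D2. Zmat3 (3.51, 3.33 and 3.74) and Perp (1.17, 17.7 and 11.1) held the lowest 2 ranks under every label. None of the 27 neighbouring pairs in these orders was separated by more than the larger of their SDs between cells.

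Past 2-fold in mean level, Trp53 and Perp were higher and Trp53inp1 lower in D1 than in D0, 2 and 1 of the 10 genes, where 14% of all 17115 genes tested (those read in 10% or more of cells under 1 of the labels compared) were higher and 22.1% lower. Perp, read in 8.89% of D0 cells, met the limit of 10% only through the later label in both comparisons with D0, so its place in these counts is no support. In D2 over D0, Perp and Sesn2 were higher and Trp53inp1 lower, again 2 and 1 of 10, where 11.8% of 13964 genes were higher and 28.1% lower. Sesn2 was at the limit, and its ratio ran from 0.86 to 1.11 with any 1 cell left out. In D2 over D1 none of the 10 was past 2-fold either way, where 14.8% of 16465 genes were higher and 20% lower. The median log2 ratio of the 10 genes was 0.28, 0.19 and -0.14 in the 3 comparisons, beside -0.06, -0.22 and -0.10 over all genes tested. With TMM scaling, which moved the median of all genes in D2 over D0 from -0.22 to -0.03 and the higher share of all genes past 2-fold there from 29.7% to 42.2%, Bax also passed 2-fold in both comparisons with D0 (log2 1.10 and 1.22), and the count of higher members became 3 in each. All 3 comparisons share labels, so their counts are not independent of each other.

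**Figure D2:**
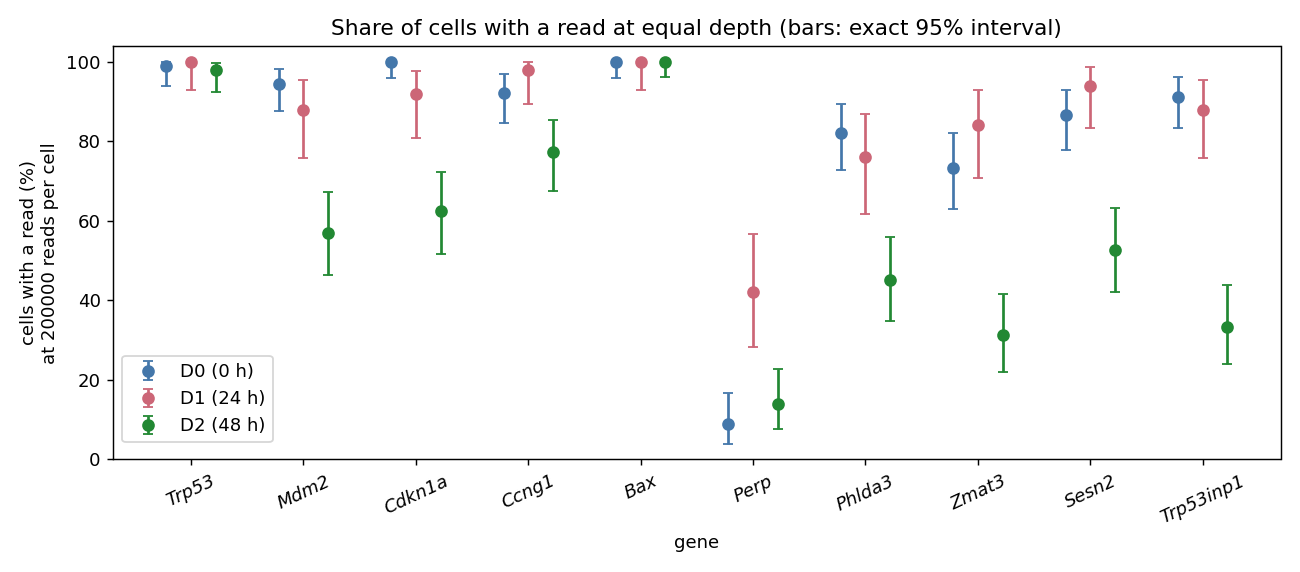
Share of kept cells with at least 1 read after every cell was thinned to 200000 reads, in percent, for each gene (horizontal axis) in D0, D1 and D2, with exact 95% intervals as bars. Trp53 and Bax are at or near 100% at every time, Perp is highest in D1, and the other 7 genes are lowest in D2.

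Shares of cells with a read were mostly lower in D2, also where the means were close. At equal depth 9 of the 10 genes were read in 50% or more of cells in D0 and in D1, and 6 did in D2. This was common in D2: the 5559 genes read in 70% or more of D0 cells had a median share of 92.2% in D0, 92% in D1 and 48.4% in D2, and the 9 members among them had 92.2%, 92% and 57%. Genes picked for a high D0 share can hardly be higher later, so these are descriptions. Of those 5559 genes 69.2% were under 70% of cells in D2, as were 6 of the 9 members. The lower number of genes per D2 cell and the lower median mitochondrial share (1.32% against 4.54% in D0 and 3.32% in D1) go with it, and their part was not tested. In single cells, the median number of the 9 targets found at equal depth was 8, 8 and 5 under D0, D1 and D2. All 9 were found together in 5 of 90 D0 cells, 16 of 50 D1 cells and 1 of 93 D2 cells, and 4 or fewer in 3, 2 and 41 cells. Perp alone was found in 8, 21 and 13 cells at this depth, which caps the count of cells with all 9.

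**Figure D3:**
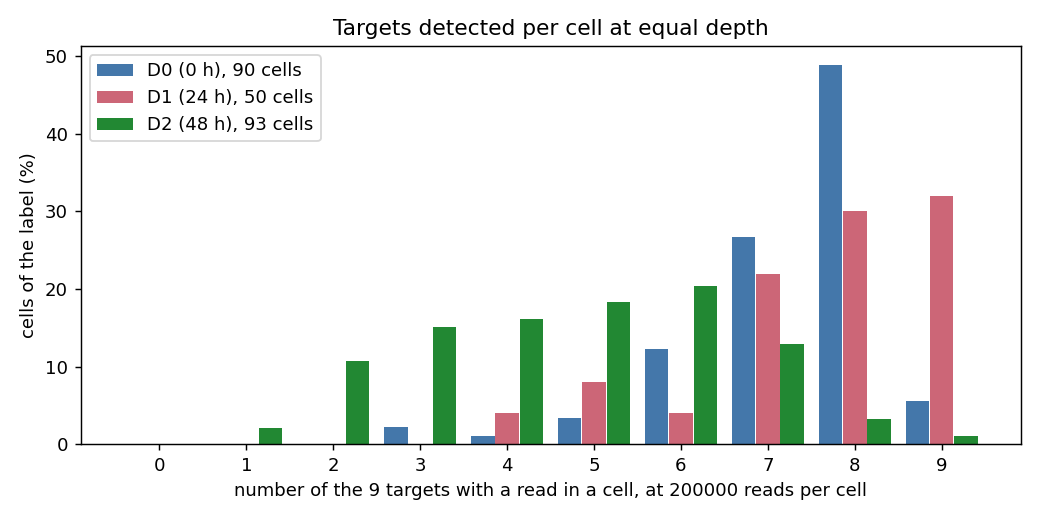
Number of the 9 targets with a read in a cell thinned to 200000 reads (horizontal axis) and the share of the label's cells in percent (vertical axis; bars start at 0), for 90 D0, 50 D1 and 93 D2 cells. D0 peaks at 8 targets, D1 at 8 and 9, and D2 spreads from 1 to 9 with a median of 5.

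Whether the targets were high in the same cells was read from Spearman correlations of CPM across the cells of 1 label, among genes read in 20% or more of them. Cells of a label were taken to share plate, culture and library, so rho is a description with no p. Unrelated pairs pass a rho of 0.3 more readily with fewer cells, here 50 in D1 against 90 in D0 and 93 in D2. Counts at this limit are therefore set beside all pairs of the same label and do not compare labels. In D1, 24 of 45 pairs of members had a rho of at least 0.3, beside 6.34% of all pairs of genes in those 50 cells. In D0 it was 9 of 36 pairs, beside 0.955%, and in D2 3 of 36, beside 0.599%, Perp being detected too rarely there to be used. Of all pairs of targets, 26 of 28 were above 0 in D0 (median 0.25), 30 of 36 in D1 (0.37) and 23 of 28 in D2 (0.14), and those below 0 all held Bax. Among targets other than Bax, a choice made after seeing the values, the median was 0.30, 0.40 and 0.22 in D0, D1 and D2. The median over all pairs of genes was 0.03, 0.05 and 0.02 in D0, D1 and D2.

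**Figure D4:**
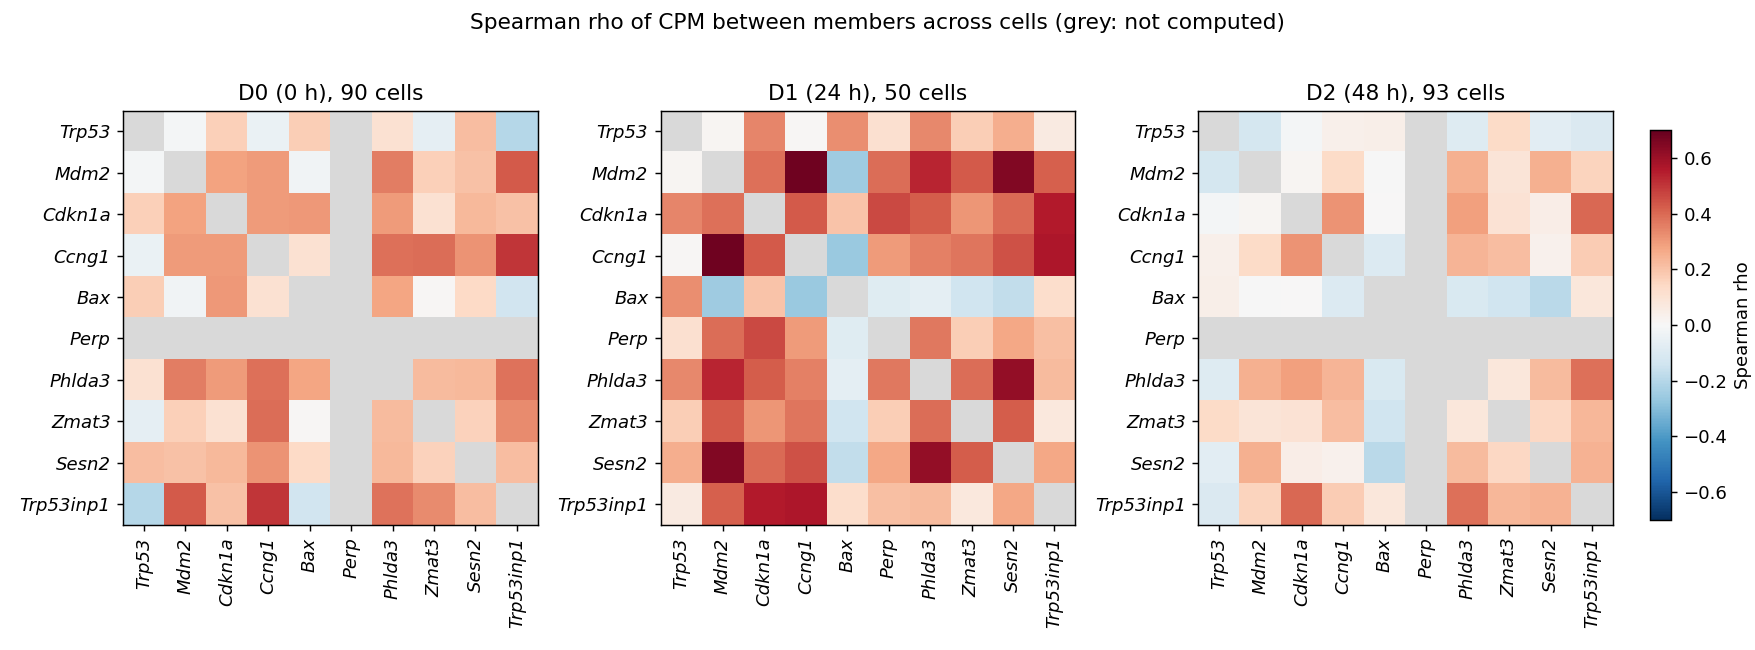
Spearman rho of CPM between members across the cells of each label, 1 panel per label with the genes on both axes, red above 0, blue below 0 and grey where it was not computed. The D1 panel is the reddest, its Bax row and column are mostly pale or blue, and the D2 panel is pale throughout.

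The strongest D1 pairs joined Mdm2 with Ccng1 (rho 0.68, both with reads in 48 cells) and with Sesn2 (0.65). Phlda3 with Sesn2 followed at 0.62, then Ccng1 with Trp53inp1 at 0.57 and Cdkn1a with Trp53inp1 at 0.56. Perp, although read in only 24 D1 cells, had a rho of 0.46 with Cdkn1a and 0.39 with Mdm2. In D0 the highest pairs were Ccng1 with Trp53inp1 (0.50) and Mdm2 with Trp53inp1 (0.43), and in D2 they were Cdkn1a with Trp53inp1 (0.40), Phlda3 with Trp53inp1 (0.39) and Cdkn1a with Ccng1 (0.31). The pair of Mdm2 and Ccng1 was at 0.30 in D0 and 0.13 in D2. Removing what the number of reads and of genes per cell account for, by partial correlation, left 8, 22 and 3 pairs at or above 0.3 in D0, D1 and D2.

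**Figure D5:**
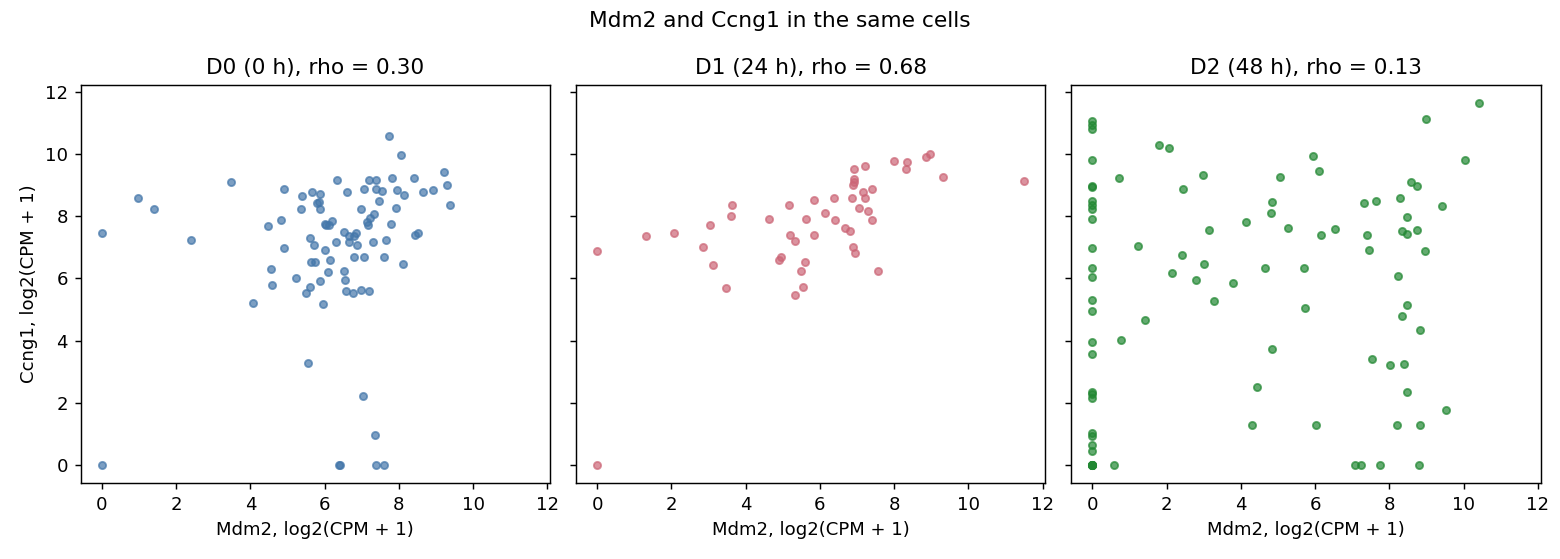
Mdm2 (horizontal axis) against Ccng1 (vertical axis) in the same cells, both as log2(CPM + 1), 1 panel per label and 1 point per cell. The D1 points lie along a diagonal (rho 0.68), the D0 points form a loose cloud (0.30) and the D2 points spread over both axes with many at 0 (0.13).

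At the limit of 0.3, correlation was more common among all genes in D1, which had the fewest cells, and this differed between members. Sesn2 had a rho of at least 0.3 with 15.8% of all genes there, Zmat3 with 11.6%, Mdm2 with 10.2% and Phlda3 with 9.91%, and Zmat3 and Sesn2 followed the number of genes per cell at 0.44 and 0.34. Cdkn1a and Trp53inp1 had it with 2.42% and 2.27% of all genes, and yet with 7 and 3 of the 8 other targets. Bax behaved otherwise: its median rho with the other targets stood at 0.11, -0.11 and -0.10 for D0, D1 and D2, and its only pair with a target at 0.3 was with Cdkn1a in D0 (0.30). Trp53 had a median rho with the targets of 0.04, 0.17 and -0.04 in D0, D1 and D2. It reached 0.3 with Cdkn1a (0.34), Phlda3 (0.33) and Bax (0.33) in D1, 3 of 9 targets where 3.96% of all genes did so, and with no target in D0 or D2, and with Mdm2 and Ccng1, the pair most alike in D1, it was at 0.02 and 0.01.

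The genes most like each of Trp53, Cdkn1a, Mdm2 and Ccng1, by rho among genes read in 50% or more of the label's cells, were taken 3 at a time. In D1, out of 8345 genes, Cdkn1a was closest to Plk2 (0.56), Btg2 (0.56) and Trp53inp1 (0.56). Mdm2 was closest to Inppl1 (0.68), Ccng1 (0.68) and Plk2 (0.66), and Ccng1 to Prrg4 (0.68), Mdm2 (0.68) and Plk2 (0.66). Plk2, a polo-like kinase, and Btg2, an antiproliferative cofactor, are themselves listed p53 targets, so that 7 of these 12 D1 places went to other members or pathway genes, which were 9 and 49 of the genes compared. In D0 it was 3 of 12 places and in D2 1 of 12. The places are not separate results: in D1 Plk2 has a place beside each of Cdkn1a, Mdm2 and Ccng1, and the pair of Mdm2 and Ccng1 is counted from both ends. Trp53 was instead closest to H3f3a (0.63), Sp2 (0.61) and Clpp (0.60). In D0, out of 7764 genes, Trp53 was closest to Ndufs8 (0.56), Rps15 (0.55) and Cyc1 (0.53), Cdkn1a to Rps14, Scand1 and Fabp3 (each 0.40), Mdm2 to Trp53inp1 (0.43), Sdc4 (0.39) and Scap (0.37), and Ccng1 to Hmcn2 (0.50), Trp53inp1 (0.50) and the listed target Psrc1 (0.48). In D2 no gene went above 0.38 with any of the 4. The highest there were Siah1b for Trp53 (0.36), Cd320 for Cdkn1a (0.38), Tdp2 for Mdm2 (0.35) and Ncbp2 for Ccng1 (0.38), with Psrc1, a listed target, next for Ccng1 (0.36).

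A list of 61 further p53 pathway genes was set beside the 10. In D1 over D0, 58 of them were tested, 10 were past 2-fold higher and 16 lower, with a median log2 ratio of -0.44 against -0.06 over all genes. These counts stand beside 14% higher and 22.1% lower among all genes tested, as do those of the smaller groups that follow. Of 13 regulators none was higher and 5 were lower, among them Atm (-1.90, 47.2 against 179 CPM), the kinase that signals DNA breaks, and Chek2 (-1.84), the kinase it activates. Of 8 arrest targets 4 were higher and none lower, with Gadd45a, a growth arrest and DNA damage protein, at 2.16 (13.4 against 2.22 CPM). Death targets were split with 2 of 10 higher and 2 lower. Pmaip1, which encodes the BH3-only protein Noxa, was at 4.06, with 93.8 CPM and reads in 38 of 50 D1 cells against 4.68 CPM and 7 of 90 D0 cells. A single D1 cell at 2205 CPM gave 47% of the summed D1 level and a single D0 cell 58.9% of that of D0, and with any 1 cell left out the ratio ran from 3.19 to 5.01. Tnfrsf10b, a death receptor, was at 1.81. None of 6 repair targets was higher and 3 were lower, and none of 11 metabolism targets was higher and 5 were lower. Trp53cor1, a long noncoding RNA transcribed next to Cdkn1a, was at -2.20, with reads in 3 D1 and 26 D0 cells. It passed the filter only through D0, and with a D1 mean of 0.245 CPM its ratio is largely set by the 1 CPM added.

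In D2 over D0, 55 genes of the list were tested, 9 were higher and 9 lower, with a median of -0.17 against -0.22 over all genes, of which 11.8% were higher and 28.1% lower. The highest were Trp53i11 (2.80, 50.1 against 6.35 CPM), Steap3 (2.63), an iron reductase of endosomes, and Plk3 (2.34), a polo-like kinase. Reads were found in 25 of 93 D2 and 27 of 90 D0 cells for Steap3, 34 and 37 for Plk3 and 28 and 22 for Trp53i11, of which 1 cell held 33% of the D2 level. Atm (-3.27, 17.7 against 179 CPM) and Trp53cor1 (-2.40) were among the lowest. Trp53cor1 again passed the filter only through D0, and with reads in 2 D2 cells and a D2 mean of 0.0839 CPM its ratio is largely set by the 1 CPM added. Repair targets were again 3 of 6 lower and none higher. In D2 over D1, 12 of 57 were higher and 7 lower, beside 14.8% and 20% of all genes tested, with Trp53i11 (2.95), Eda2r (2.86), a receptor of the TNF family, and Gls2 (2.46), a mitochondrial glutaminase, at the top. These were ratios of means: Gls2 had reads in 37 of 93 D2 cells and 43 of 50 D1 cells, Eda2r in 48 and 29, and Trp53i11 in 28 and 18. Pmaip1 (-3.38, reads in 6 of 93 D2 cells) was at the bottom, at -4.41 to -2.50 with any 1 cell left out. Among the lowest was also Tap1, a peptide transporter, whose ratio is set by the 1 CPM added and which passed the filter only through D1, with reads in 12 D1 cells and in 0 of 93 D2 cells, where a limit of 3 cells for a count of 0 would allow a read in up to 3.23% of cells, which covers the sampling of cells and not transcripts missed within them. With TMM scaling the counts became 14 higher and 11 lower in D1 over D0, which turns their order, and 12 and 7 in D2 over D0.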

How the data were processed

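Single-cell RNA of 288 wells under 3 labels was used. The authors aligned the reads with HISAT2 (genome GRCm38, per the submitters' processing notes) and deposited whole-number read counts per gene. The labels name a filtered, normalized table, but the values are raw counts and failing wells are present. The counter, its strand setting and the annotation are not given in the sources used here. No molecular identifiers were counted, and 0 columns belonged to other samples. Wells passed the study's limits (over 200000 reads, over 2000 genes, mitochondrial share under 0.15, which the study prints as a percent), and more wells passed here than the study kept, for a reason not tested. No doublet caller was run, since wells received sorted single cells.

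Counts were divided by the cell's total (CPM). Log2 ratios compare means over cells plus 1 CPM. Past 2-fold stands in for a call, since each label was taken as 1 culture, which allows no test. For shares each cell was thinned without replacement to 200000 reads (seed 1). Python 3.11.15, numpy 2.4.6, pandas 2.3.3 and scipy 1.17.1 were used, with TMM factors from edgeR 4.0.16 in R 4.3.3 as an alternative and matplotlib 3.10.9 for plots. The steps were checked on simulated data. Members and lists were chosen with earlier results of these data known. Named besides the 10 members were the 3 highest and 3 lowest pathway genes per comparison, if read in 20% or more of cells under 1 of the labels compared, and the 3 genes most like each of Trp53, Cdkn1a, Mdm2 and Ccng1. A gene that this rule names is not reported here. Alternatives varied the cell limits, summing, thinning, pseudocount, scaling, side of the plate, and cells whose Hprt and Y-linked reads go against their label.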

Additional observations from a re-analysis of the deposited data

How the results depend on the processing

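No paired analysis was possible because a well number marks a place on a plate and each time point was taken as a single culture. In D1 over D0 and D2 over D0, the log2 ratios of Trp53 and Bax stayed above 0 and that of Trp53inp1 below 0 under every alternative run. That of Perp stayed above 0 under all but medians over cells, where it was 0. Genes counted as higher or lower in what follows are those past 2-fold. In D1 over D0, 2 members were lower in plate columns 1 to 6 and 2 with medians (Cdkn1a and Trp53inp1), and the pathway list had 4 higher and 9 lower with a pseudocount of 10 and 6 higher in columns 1 to 6. In D2 over D0, Sesn2 was under 2-fold with wells of at least 10000 reads (0.99, Bax taking its place in the count), and also, leaving 1 member higher, with a pseudocount of 10 and without the cells whose Hprt and Y-linked reads go against their label (log2 0.98), and its ratio turned to -0.36 in columns 1 to 6 and -2.16 with medians, which had 1 member higher (Bax) and 7 lower, beside 2.71% and 45% of all genes. The pathway list there had 5 higher and 4 lower with a pseudocount of 10 and 15 higher in columns 1 to 6. In D2 over D1, 1 member was lower with summed reads, 1 lower in columns 1 to 6, 1 higher in columns 7 to 12 and 7 lower with medians, beside 40.2% of all genes. Pairs at rho 0.3 numbered 14 in D0 in columns 7 to 12 and 6 in D2 in columns 1 to 6, each from 47 cells, with which the limit is passed more readily. With each cell left out in turn they ran from 7 to 12 in D0, 22 to 26 in D1 and 2 to 4 in D2. The share of all genes past 2-fold that were higher in D1 over D0 went from 38.8% to 47.9% with TMM. Medians over cells and leaving out cells for pairs were chosen after seeing the data. In all, 160 recomputed counts stayed within 1.5 times the reported one and 18 did not. Of the members' log2 ratios 122 stayed within counting error, 356 moved by more and 2 reversed. Only ratios past 2-fold as reported could count as reversed, so the 356 also hold smaller ratios that changed sign. Mdm2 in D1 over D0, for example, went from 0.33 to -0.24 in columns 1 to 6. Of the shares of cells 131 stayed within their intervals and 19 did not. Without the filter on low genes all 6 shares of tested genes past 2-fold were different. The causes were not tested. Shares of cells at 200000 reads miss transcripts below that depth, and each label was taken as 1 culture.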
